A study of Oncorhynchus mykiss with 12 samples.

Results

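The liver messenger RNA of rainbow trout (Oncorhynchus mykiss) was compared between fish kept under moderate hypoxia for 1 month and controls, across every gene with a measurable level. The genes were the rows of the RNA-seq table with a mean of at least 0.5 FPKM over the 6 libraries (FPKM scales a gene's reads for its transcript length and for the size of the library). This rule kept 19365 of 42128 rows, or 46.0%. Hypoxia meant a dissolved oxygen of 4.5 ± 0.1 mg/L, and both groups are described in the labels as wild-type liver tissue. Each group had 3 libraries of total RNA, and the sources used here do not state the age, sex, strain and holding of the fish, the oxygen level of the controls or the number of fish behind a library. P-values therefore measure only the spread between these libraries, which may be technical. Genes were then sorted into families by the words of their product descriptions, so that the whole ranking could be read without choosing pathways.

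The liver of a fish makes most of the plasma proteins, handles fat, bile and sterols, breaks down amino acids, detoxifies, and stores iron and glycogen. When oxygen is short, animals slow costly or oxygen-consuming work, and the factor HIF switches on genes for oxygen delivery and for energy production without oxygen. Over weeks of exposure, tissues can also change how many cells they make and which proteins they assemble and export. Salmonid fish carry an ancient duplication of the whole genome, so that many trout genes exist as a pair of similar copies.

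The counts per library summed to between 19060468 and 23152833. Control replicate 1 stood apart: on the first principal component (44.1% of the variance) it lay at -9.57, with the other controls at -41.8 and -38.6 and the hypoxia libraries at 24.9 to 33.2. Of the 741 genes called higher in hypoxia it was the control nearest to the hypoxia level for 513, against 110 and 118 for the other controls, and of the 657 called lower it was nearest for 331, against 127 and 199. Summed FPKM of hepatocyte markers was 67500 to 77400 in controls and 69600 to 76000 in hypoxia, by far the highest of the marker lists. Summed leukocyte markers were 45.8 to 58.5 and 51.7 to 58.9, and 0 of 26 tested were called in edgeR, DESeq2 or limma, with 2 at an unadjusted p under 0.05 in edgeR. Pancreatic markers summed to 253 to 351 in controls and 185 to 295 in hypoxia, mostly from an alpha-amylase gene, and muscle, biliary and intestinal markers to at most 15.6. Below, calls are genes with an adjusted p under 0.05 in edgeR's quasi-likelihood test, changes are on the log2 scale (above 0 where hypoxia was higher) and come from the same test, and SE is the standard error of that log2 value. Where values with 1 library left out are given, they stand in the fixed order of control replicates 1, 2 and 3 and then hypoxia replicates 1, 2 and 3 left out.

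The question was how the range of liver messenger RNAs is altered by 1 month of moderate hypoxia. Genes for copying DNA, building nucleotides, charging transfer RNAs, folding and glycosylating secreted proteins and forming microtubules were among those that rose, and globins, apolipoproteins of the A-I and A-IV kind, phospholipid enzymes, collagens, lysosomal enzymes and cytochromes P450 were among those that fell. Of the 19365 genes tested, 741 were called higher (3.83%) and 657 lower (3.39%), 7.22% together. Rises were larger and sat at lower levels: the median log2 change was 0.94 among the genes called higher and -0.78 among those called lower, and their median levels were 3.33 and 5.04 FPKM, against 2.05 FPKM among genes not called. At least 2-fold rises numbered 320 (1.65% of tested genes) and falls 156 (0.806%), and at least 4-fold rises 36 and falls 18. The 3 hypoxia libraries lay wholly above the 3 controls for 734 of the 741 and wholly below for 646 of the 657, where 13.9% and 13.1% of all tested genes had groups apart in those directions. Leaving out 1 library gave 2186, 473, 496, 361, 472 and 432 calls. None of these fits called a gene in the opposite direction, and 225 genes (136 higher, 89 lower) were called in all 6 of them.

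**Figure D1:**
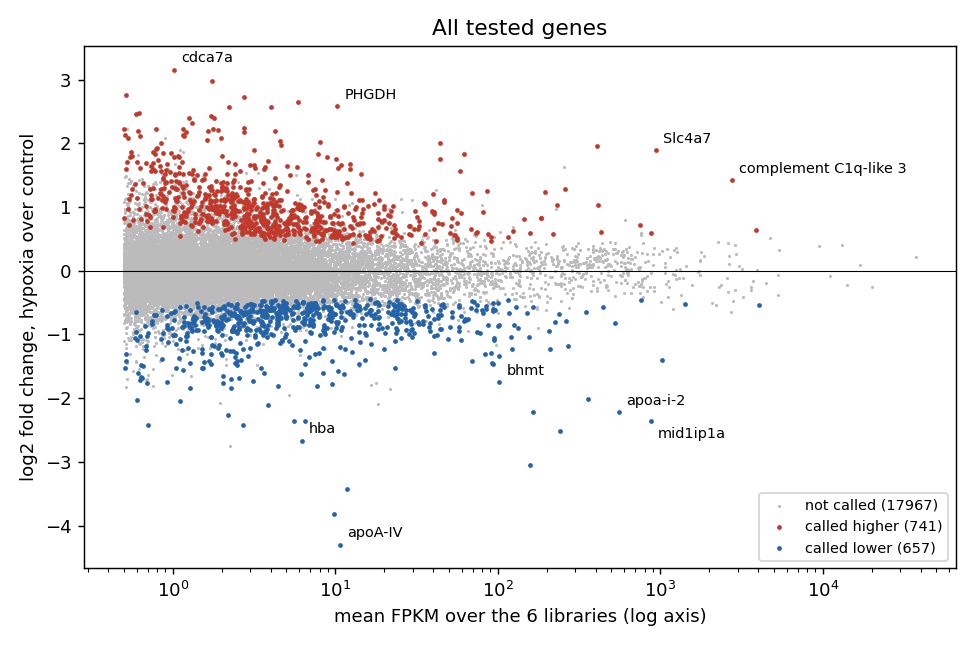
Log2 fold change (hypoxia over control, y axis) against the mean FPKM over the 6 libraries (x axis, log scale) for 19365 tested genes, with genes called higher in red (741), lower in blue (657) and not called in grey (17967). Above 100 FPKM more genes were called lower (34) than higher (18).

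The most abundant liver transcripts did not pass the test. Among the 10 genes of highest level were apolipoproteins A-II and A-I-1, the trout albumins, transferrin-a, an alpha-1-antiproteinase, complement C3, fibrinogen gamma chain and fatty acid-binding protein 10-a, and none of them was called. The albumin gene 100499622, which encodes the main plasma carrier protein, stood at 11300, 10500 and 12000 FPKM in the controls and at 13800, 16900 and 14800 in hypoxia, a log2 change of 0.41 (SE 0.16, edgeR adjusted p = 0.142). Its groups did not overlap, but the difference missed the threshold. As a share of all FPKM, the genes called higher made up 2.8%, 2.21% and 2.04% in the controls and 4.33%, 4.64% and 4.36% in hypoxia. The genes called lower made up 5.17%, 5.8% and 5.38% in the controls and 2.94%, 2.86% and 2.99% in hypoxia. These shares describe genes picked by the same comparison and are no test.

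Among the abundant transcripts that rose was complement C1q-like protein 3 (NCBI gene 100136613), a secreted protein with the globular domain of complement C1q. It had 1930, 1480 and 1070 FPKM in the controls and 4300, 4500 and 3210 in hypoxia, a log2 rise of 1.42 (SE 0.21, edgeR adjusted p = 0.00793). Every hypoxia library was above every control, and the call held with any library left out. A pair of genes described as sodium bicarbonate cotransporter 3 and named Slc4a7, a type of transporter that carries bicarbonate with sodium across the cell membrane, rose together. The more abundant copy (110534121) went from 479, 422 and 300 FPKM to 1080, 2270 and 1110, a log2 rise of 1.89 (SE 0.29, edgeR adjusted p = 0.00838). The other copy (110535510) went from 195, 172 and 129 FPKM to 461, 970 and 508, a log2 rise of 1.95 (SE 0.28, edgeR adjusted p = 0.00793). In both copies hypoxia replicate 2 was the highest library by far, the groups did not overlap, and the calls held with any library left out. Reads may be shared between the copies, so the rise of one may not be separate from that of the other.

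Calls were more frequent among well-expressed genes. In the lowest 10% by mean FPKM (0.5 to 0.699) 1.6% of genes were called higher and 1.03% lower, and in the highest 10% (15.3 and above) 5.21% and 8.88%. Transcript length, read from the ratio of the deposited counts to the deposited FPKM, also went with the direction. Among the shortest 10% of genes 6.3% were called higher and 2.68% lower, and among the longest 10% 2.01% and 3.46%. Over all genes, called or not, the median log2 change was 0.17 in the shortest and -0.05 in the longest. Control replicate 1 was lowest for short transcripts, with a median log2 ratio to the mean of all libraries of -0.19 in the shortest 10%, where the other controls had -0.03 and -0.02 and the hypoxia libraries 0.15, 0.07 and 0.05. Without that library the median change in the shortest 10% was 0.12. Median lengths were 2210 bases for genes called higher, 3230 for genes called lower and 2860 for the rest. Removing the length trend within each library left 1289 calls (671 higher, 618 lower), of which 611 and 552 were shared with the calls above. The part of length in any single result was not tested otherwise.

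**Figure D2:**
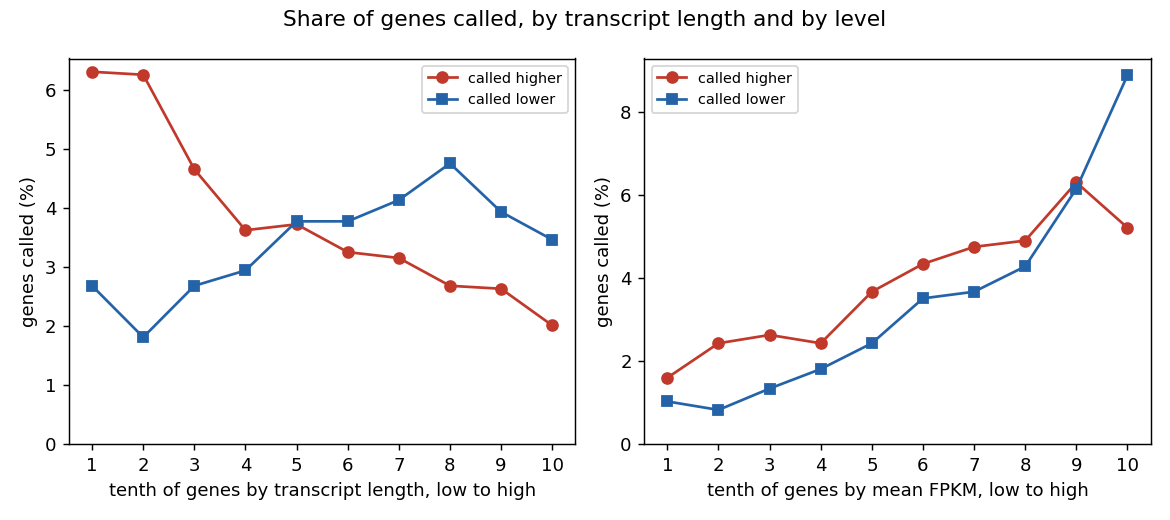
Percent of tested genes called higher (red circles) and lower (blue squares) in hypoxia, in 10 equal groups of genes from the shortest to the longest transcript (left) and from the lowest to the highest mean FPKM (right). Calls of rises go down from 6.3% to 2.01% with length, and calls of falls go up from 1.03% to 8.88% between the lowest and the highest 10% by level.

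By description, 1531 families held at least 6 tested genes and together covered 16255 genes. In 622 families no member was called, in 52 at least 25% of members were called higher, and in 37 at least 25% were called lower. Every family count below is to be read beside the 3.83% higher and 3.39% lower of all tested genes. Some families are joined by a word alone: "limb" and "malignant", which each had 2 of 6 members lower, hold unrelated products such as Dmbt1 and L3MBTL4. Leaving out 1 library changed the total of 89 families with at least 25% called 1 way to 160, 23, 25, 22, 26 and 21. The word family glyceraldehyde, not treated below, had 3 of 6 members lower (3, 2, 2, 2, 2 and 2 with 1 library left out) and 2 above 0. Its member gapdh (110496191) had 306, 420 and 397 FPKM in the controls and 150, 185 and 166 in hypoxia. The log2 change of gapdh was -1.19 (SE 0.17, edgeR adjusted p = 0.00793), and the call held with any library left out.

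**Figure D3:**
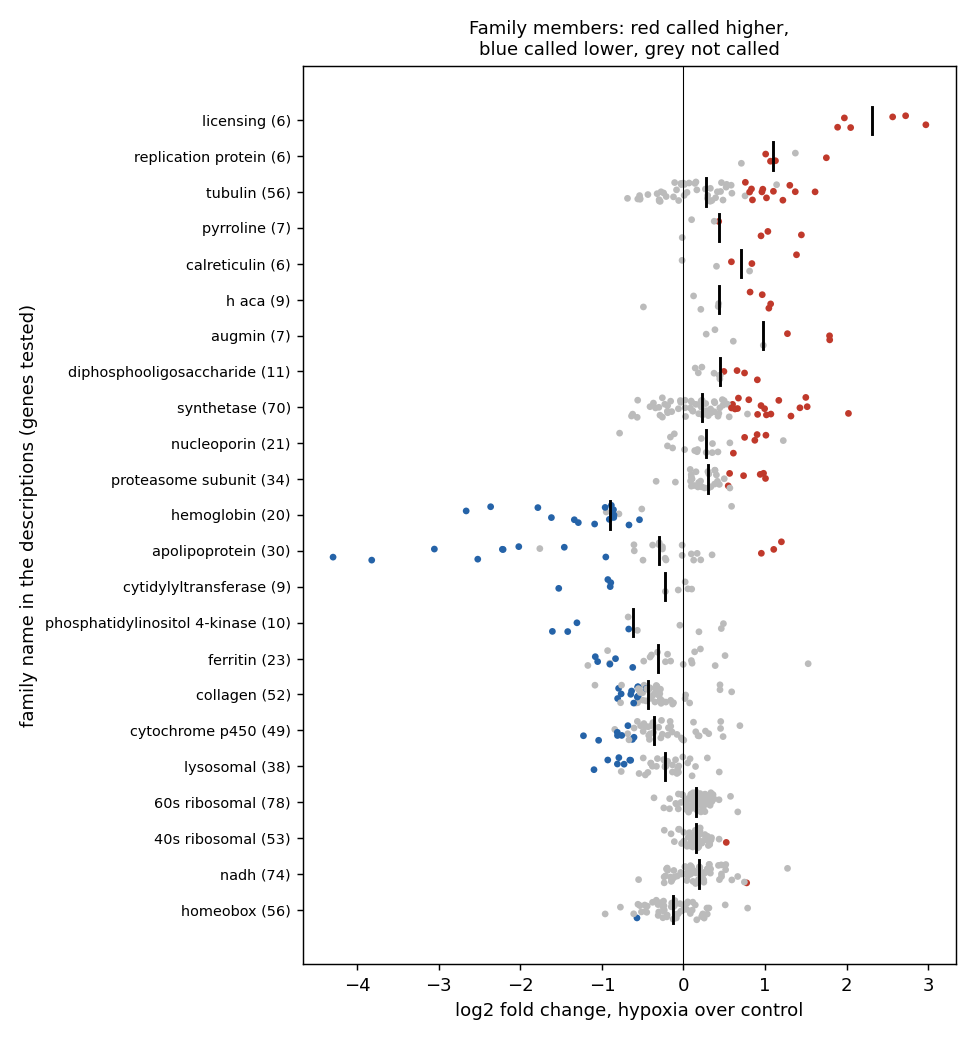
Log2 fold change (x axis) of each tested member of 23 families named by words of the product description (y axis, number of tested genes in brackets), with members called higher in red, called lower in blue and not called in grey. Black bars are the family medians, which run from 2.31 for licensing factors to -0.90 for hemoglobins and lie near 0.16 for both groups of cytosolic ribosomal proteins.

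Genes that copy DNA were among those called higher. All 6 genes described as licensing factors were called higher (median log2 change 2.31). They are genes for mcm2, mcm4, mcm5 and mcm6, a part of the MCM subunits that form the replication helicase. Of 31 genes with "replication" in the description 17 were higher, with 0 lower. Leaving out 1 library gave 6, 6, 5, 6, 6 and 5 licensing factors and 18, 13, 11, 11, 14 and 12 of the wider family. The word family minichromosome, which holds mcm3, had 4 of 7 higher (4, 2, 3, 3, 3 and 1 with 1 library left out). Replication protein A, the trimer that coats single-stranded DNA, had 4 of 6 genes called higher (4, 4, 3, 3, 3 and 4 with 1 library left out). Its smallest subunit, rfa3 (100305185), had 5.89, 3.47 and 4.43 FPKM in the controls and 16.4, 13.2 and 17.4 in hypoxia, a log2 rise of 1.75 (SE 0.20, edgeR adjusted p = 0.00401). The groups did not overlap. The catalytic primase subunit prim1 (110492372), which makes the RNA primers of replication, had 0.793, 0.309 and 0.66 FPKM in the controls and 2.82, 2.32 and 3.04 in hypoxia, a log2 rise of 2.19 (SE 0.30, edgeR adjusted p = 0.00719). The histone chaperone Nasp (110530542) rose by 2.21 on the log2 scale (SE 0.35, edgeR adjusted p = 0.00882), with control replicate 1 at 1.18 FPKM, the other controls at 0.397 and 0.451, and hypoxia at 2.65, 2.76 and 3.89. For rfa3, prim1 and Nasp control replicate 1 was the highest control.

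Some further genes of DNA repair and chromatin were called higher. The mismatch repair gene msh6 (110499321) rose by 2.13 (SE 0.28, edgeR adjusted p = 0.0064), from 0.617, 0.426 and 0.238 FPKM to 1.79, 1.48 and 2.35. TIMELESS (110494196), which in mammals travels with the replication fork, rose by 1.80 (SE 0.24, edgeR adjusted p = 0.0064), from 0.564, 0.415 and 0.436 FPKM to 1.31, 1.4 and 2.3. Both had groups that did not overlap, and both calls held with any library left out. The maintenance DNA methyltransferase DNMT1 (110486372) rose by 1.32 (SE 0.19, edgeR adjusted p = 0.00793) and the proliferation marker mki67 (110491556) by 1.08 (SE 0.16, edgeR adjusted p = 0.00793). These last genes were chosen after their values were seen, among those called in all 6 fits with a library left out.

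Several enzymes that supply the building blocks of DNA and RNA were called higher. The word family diphosphate had 6 of 38 members higher and 0 lower (7, 5, 4, 3, 3 and 2 higher with 1 library left out). It is joined by a word alone, and its members called higher include nudix genes such as nudt1 beside rrm2. The small subunit of ribonucleotide reductase, rrm2 (110529451), which makes deoxynucleotides, had 2.85, 1.94 and 2.45 FPKM in the controls and 7.25, 7.52 and 8.1 in hypoxia. Its log2 rise was 1.64 (SE 0.16, edgeR adjusted p = 0.00247). Deoxycytidylate deaminase, Dctd (110534481), which provides the precursor of thymidylate, had 2.96, 2.98 and 2.5 FPKM against 8.61, 9.21 and 8.63. Its log2 rise was 1.63 (SE 0.16, edgeR adjusted p = 0.00247), and within each group the libraries lay close together. Thymidylate synthetase, tyms (110489946), rose by 1.43 (SE 0.19, edgeR adjusted p = 0.0064), from 5.7, 4.44 and 3.34 FPKM to 11.1, 11.2 and 14.2. CTP synthase, ctps1 (110488169), chosen after its values were seen, rose by 1.84 (SE 0.25, edgeR adjusted p = 0.00701), from 0.431, 0.366 and 0.446 FPKM to 1.87, 1.05 and 1.66. In all 4 genes the hypoxia libraries were wholly above the controls, and the calls held with any library left out. For ctps1 this is no separate support, since it was chosen with these values known. Deaminases had 1 of 20 higher, Dctd, and 3 lower (3, 1, 2, 0, 1 and 0 lower with 1 library left out). Guanine deaminase, which breaks down guanine, was among those that fell: gda (110535802) had 3.36, 10 and 7.1 FPKM in the controls and 2.12, 2.41 and 1.47 in hypoxia, a log2 change of -1.80 (SE 0.35, edgeR adjusted p = 0.0152). Its adjusted p in edgeR was 0.0676 without hypoxia replicate 1 and 0.07 without hypoxia replicate 3.

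Genes with "tubulin" in the description, which hold the building blocks of microtubules beside proteins that fold, modify or anchor them, had 12 of 56 called higher and 0 lower (14, 7, 7, 9, 6 and 5 higher with 1 library left out). The genes described as tubulin alpha chain, without a number, had 6 of 10 higher with a median log2 change of 0.82, and all 10 were above 0 (7, 3, 3, 4, 2 and 2 with 1 library left out). The gene described as tubulin beta-1 chain and named TUBB4B (110535859) had 6.36, 4.85 and 4.0 FPKM in the controls and 12.1, 14.4 and 20.5 in hypoxia, a log2 rise of 1.61 (SE 0.21, edgeR adjusted p = 0.0064). The tubulin alpha-1c gene TUBA1C (110528227) had 15.1, 9.59 and 10.4 FPKM against 22.5, 23.8 and 29.8, a log2 rise of 1.10 (SE 0.17, edgeR adjusted p = 0.00874). In neither gene did the groups overlap. Augmin, the complex that branches microtubules in the spindle, had 3 of 7 subunits higher and all 7 above 0 (3, 3, 3, 3, 3 and 1 with 1 library left out). Its subunit haus1 (110523349) had 1.12, 0.686 and 0.907 FPKM against 2.95, 2.79 and 3.64, a log2 rise of 1.79 (SE 0.27, edgeR adjusted p = 0.00824). Reads of near-identical tubulin genes may be split between them, so single tubulin loci are uncertain.

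The nucleolus, RNA handling and nuclear transport were represented by families with members called higher. The H/ACA particle, which guides pseudouridine formation in ribosomal RNA, had 4 of 9 genes higher, but 4, 1, 2, 0, 3 and 1 with 1 library left out. Protein arginine methyltransferases had 4 of 9 higher (4, 2, 2, 1, 3 and 1), with prmt1 (110521916) at 6.8, 4.12 and 4.45 FPKM in the controls and 11.8, 9.73 and 13.3 in hypoxia, a log2 rise of 1.16 (SE 0.18, edgeR adjusted p = 0.00838). Nucleoporins, the parts of the nuclear pore, had 5 of 21 higher (6, 2, 2, 1, 2 and 1). Of these, nup210 (110531989) rose by 1.01 (SE 0.17, edgeR adjusted p = 0.00882), and its call held with any library left out. The messenger RNA export factor rae1 (110532058) had 2.45, 1.33 and 1.64 FPKM against 4.42, 3.19 and 3.88, a log2 rise of 1.28 (SE 0.15, edgeR adjusted p = 0.00492). A pair of nucleophosmin genes (NPM1), which encode an abundant nucleolar chaperone and were chosen after their values were seen, rose by nearly the same amount. The first (110533931) went from 6.59, 4.77 and 6.75 FPKM to 21.0, 12.0 and 22.7, a log2 rise of 1.604, and the other (110509917) from 8.9, 4.05 and 4.4 to 20.9, 12.8 and 22.7, a log2 rise of 1.68. In both, hypoxia replicate 2 was the lowest hypoxia library and still above every control.

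The word family synthetase had 17 of 70 members higher and 0 lower, with 20, 9, 8, 8, 12 and 6 higher when 1 library was left out. Among them were aminoacyl-tRNA synthetases, which load amino acids onto transfer RNAs. Threonyl-tRNA synthetase, tars1 (110525133), had 3.45, 1.69 and 2.99 FPKM in the controls and 6.98, 7.49 and 8.79 in hypoxia, a log2 rise of 1.5 (SE 0.22, edgeR adjusted p = 0.00793). Glutaminyl-tRNA synthetase, qars1 (110492456), had 10.9, 7.28 and 8.51 FPKM against 19.1, 15.4 and 19.5, a log2 rise of 1.00 (SE 0.15, edgeR adjusted p = 0.00837). Control replicate 2 was the lowest library for both. Asparagine synthetase, asns (110488144), rose by 1.52 (SE 0.21, edgeR adjusted p = 0.00793). Genes with "pyrroline" in the description, which make proline or, for aldh4a1 (not called), break it down, had 4 of 7 higher (4, 2, 3, 2, 2 and 2 with 1 library left out). Among them Aldh18a1 (110499060), the first enzyme of the route from glutamate, had 1.07, 0.502 and 0.796 FPKM against 2.12, 1.63 and 2.04, a log2 rise of 1.45 (SE 0.22, edgeR adjusted p = 0.00837). The other gene of that description, ALDH18A1 (110491809), was more abundant, with a mean of 12.9 FPKM against 1.36 for Aldh18a1. It rose by only 0.43 (edgeR adjusted p = 0.0493), a call kept in 1 of the 6 fits with a library left out.

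Some genes for folding and glycosylating proteins in the endoplasmic reticulum were called higher. Calreticulin, a chaperone that binds newly made glycoproteins, had 3 of 6 genes higher (3, 2, 2, 2, 2 and 3 with 1 library left out). The gene CALR (110524201) had 26.0, 19.9 and 21.9 FPKM in the controls and 45.1, 39.9 and 37.9 in hypoxia, a log2 rise of 0.84 (SE 0.13, edgeR adjusted p = 0.00879). A less abundant copy, calr (110521567), had 4.76, 2.61 and 3.76 FPKM against 12.3, 9.2 and 7.96, a log2 rise of 1.39 (SE 0.21, edgeR adjusted p = 0.00837). Subunits of the oligosaccharyltransferase, which attaches sugar chains to nascent proteins, had 4 of 11 higher and all 11 above 0 (3, 2, 2, 0, 1 and 3 higher with 1 library left out). Of the word family isomerase, which holds the disulfide and prolyl isomerases that speed protein folding beside unrelated sugar and sterol enzymes, 13 of 74 were higher and 1 lower (17, 7, 7, 6, 6 and 5 higher). The prolyl isomerase Fkbp2 (110509962) had 9.97, 11 and 8.7 FPKM against 22.5, 19.8 and 16.7, a log2 rise of 0.97 (SE 0.15, edgeR adjusted p = 0.00847). The collagen chaperone hsp47 (100135844) rose by 1.26 (SE 0.19, edgeR adjusted p = 0.00824), from 4.21, 2.13 and 3.08 FPKM to 6.97, 6.65 and 7.33. In these 4 genes the groups did not overlap and the calls held with any library left out.

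Some heat shock proteins were called higher. Of 29 tested, 5 were higher and 1 lower (5, 1, 1, 2, 1 and 1 higher with 1 library left out), with a median log2 change of 0.17. These are 17.2% higher and 3.45% lower, where 3.83% and 3.39% of all genes were, so the share lower was near that of all genes. The mitochondrial chaperone HSPA9 (110488558), described as stress-70 protein and so outside that family, had 5.92, 4.05 and 5.04 FPKM in the controls and 13.6, 10.1 and 13.2 in hypoxia, a log2 rise of 1.27 (SE 0.16, edgeR adjusted p = 0.0064). An assembled locus described as heat shock cognate 70 kDa protein (MSTRG.10716) fell, from 2.74, 3.84 and 3.99 FPKM to 1.16, 1.13 and 1.66, a log2 change of -1.45 (SE 0.25, edgeR adjusted p = 0.00956). The mitochondrial import chaperone timm13 (110503939) had 1.53, 1.65 and 1.5 FPKM in the controls and 5.01, 4.22 and 5.38 in hypoxia, a log2 rise of 1.61 (SE 0.19, edgeR adjusted p = 0.0048). The controls of timm13 lay within a narrow range far below the hypoxia libraries. Proteasome subunits had 6 of 34 higher, 32 of 34 above 0 and a median log2 change of 0.30, beside a median of -0.005 over all genes. With 1 library left out 6, 1, 1, 1, 1 and 1 were called, and 2 with the length trend removed. The subunit gene PSMA7 (110532009) rose by 1.01 (SE 0.17, edgeR adjusted p = 0.00956) and kept its call with any library left out.

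Insulin-like growth factors and their binding proteins, which set how much of these growth hormones reaches tissues, had 4 of 21 members higher and 2 lower. The counts changed with the libraries: 5, 1, 0, 2, 1 and 0 were higher and 4, 1, 0, 0, 0 and 0 lower with 1 library left out, and 2 higher and 3 lower with the length trend removed. The gene described as insulin-like growth factor-binding protein 1 and named IGFBP5 in the table (110508631) had 35.7, 8.35 and 15 FPKM in the controls and 54.4, 62.8 and 87.9 in hypoxia. Its log2 rise was 1.75 (SE 0.40, edgeR adjusted p = 0.026), lost without control replicate 3 and without each hypoxia replicate. Insulin-like growth factor 2b, igf2b (100136742), had 41.6, 33.3 and 57.5 FPKM against 25, 24.6 and 25.7, a log2 change of -0.84 (SE 0.19, edgeR adjusted p = 0.0265), lost without the same 4 libraries. In both genes the groups did not overlap, and the controls were more spread than the hypoxia libraries on the log scale.

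Hemoglobins had the largest share of members called lower among all families, 16 of 20, where 3.39% of all genes were. Leaving out 1 library gave 16, 15, 8, 10, 10 and 9. Globins carry oxygen in red blood cells. The summed red blood cell markers were 1570, 1270 and 1750 FPKM in the controls and 916, 852 and 677 in hypoxia, with 16 of 27 tested markers lower and 23 of 59 rows at 0. Hemoglobins are part of that list and its most abundant members, and they have the same count of 16 lower. The list is therefore no separate measure of red blood cells. In whole liver, fewer red blood cells and less globin RNA per cell cannot be told apart. The beta globin gene hbb1 (100301726) had 135, 118 and 132 FPKM in the controls and 66.5, 61.8 and 55.4 in hypoxia, a log2 change of -1.09 (SE 0.13, edgeR adjusted p = 0.00554). Over the 20 genes the log2 changes ran from -2.66 to 0.59, with 1 of them above 0 and a median of -0.90. Reads may be split between the near-identical globin copies. Genes with "erythrocyte" in the description had 3 of 8 lower (3, 0, 0, 0, 0 and 0 with 1 library left out). Ferritin middle subunits, a fish form of the iron storage protein, had 5 of 15 lower (6, 0, 2, 0, 0 and 0).

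Genes with "apolipoprotein" in the description, mostly protein parts of plasma fat particles, had 9 of 30 members lower and 3 higher, with 13, 6, 7, 3, 4 and 2 lower when 1 library was left out. The falls were mostly A-I and A-IV genes, of which apoa-i-2 (100135865) had 790, 1090 and 860 FPKM in the controls and 201, 190 and 209 in hypoxia, a log2 change of -2.22 (SE 0.16, edgeR adjusted p = 0.000368), the smallest adjusted p of all genes. A pair of A-IV genes showed how far controls could spread. LOC110537898 had 314, 864 and 539 FPKM in the controls and 146, 139 and 149 in hypoxia, a log2 change of -2.02 (SE 0.30, edgeR adjusted p = 0.00793). LOC110537912 had 86.5, 525 and 233 FPKM in the controls and 37.5, 35.3 and 31.6 in hypoxia, a log2 change of -3.05 (SE 0.50, edgeR adjusted p = 0.00882), with an adjusted p of 0.0504 without hypoxia replicate 3. Control replicate 1 was the lowest control for each of these A-I and A-IV genes. The rises were apoe, an assembled locus described as apolipoprotein C-IV (MSTRG.2810) and apooa, a mitochondrial inner membrane protein, all chosen after their values were seen, with 3, 2, 2, 1, 1 and 0 higher when 1 library was left out. The call of apooa was lost in 5 of these 6 fits (edgeR adjusted p of 0.061 to 0.0722). The gene apoe (100136023) had 17.2, 24.7 and 31.6 FPKM in the controls and 48.1, 54.7 and 64.5 in hypoxia, a log2 rise of 1.20 (SE 0.22, edgeR adjusted p = 0.0122), with an adjusted p of 0.0525 without hypoxia replicate 3.

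Some genes that make and modify phospholipids of membranes were called lower. The word family for CTP-using transferases (cytidylyl transferases), most of which activate phospholipid head groups or phosphatidate with CTP, had 4 of 9 lower (4, 1, 2, 1, 1 and 2 with 1 library left out). CDP-diacylglycerol synthase, Cds1 (110525165), had 3.73, 6.67 and 5.17 FPKM in the controls and 1.68, 1.86 and 1.97 in hypoxia, a log2 change of -1.53 (SE 0.21, edgeR adjusted p = 0.00729). Genes with "ethanolamine" in the description had 3 of 7 lower and 1 higher (3, 0, 1, 0, 1 and 1 lower, and 2, 0, 0, 0, 0 and 0 higher). Those lower were etnppl and the PCYT2 genes (118940023 and 110485489), which are already counted among the cytidylyl transferases. The gene called higher was etnk1. Phosphatidylinositol 4-kinases had 4 of 10 lower, all of type 2 (5, 3, 3, 3, 3 and 3). The pi4k2a copies had 9.37, 17.0 and 11.2 FPKM against 4.81, 4.31 and 3.46 at gene 110485454, a log2 change of -1.61, and 10.3, 15.9 and 15.3 against 4.54, 6.07 and 5.18 at gene 110485456, a log2 change of -1.42 (SE 0.23 and 0.21, edgeR adjusted p = 0.00793 for both). In each, control replicate 1 was the lowest control and still above every hypoxia library. Of the word family phosphoinositide, 5 of 22 were lower (6, 2, 2, 2, 5 and 2), including 3 genes for WIPI1, which binds phosphoinositides on forming autophagosomes. The WIPI1 gene 110487114 had 2.0, 1.74 and 2.99 FPKM against 0.73, 0.72 and 0.937, a log2 change of -1.53 (SE 0.26, edgeR adjusted p = 0.00952).

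Genes with "lysosomal" in the description, which hold digestive enzymes of the lysosome beside membrane and transport proteins, had 7 of 38 lower and 0 higher (11, 3, 3, 3, 3 and 3 lower with 1 library left out). Lysosomal acid lipase, LIPA (110498985), which frees cholesterol and fatty acids from stored esters, had 13.5, 12.1 and 13.6 FPKM in the controls and 7.11, 7.42 and 8.19 in hypoxia. Its log2 change was -0.81 (SE 0.13, edgeR adjusted p = 0.00882). Lysosomal alpha-glucosidase, Gaa (110494869), which digests glycogen, had 12.2, 12.1 and 9.74 FPKM against 6.24, 4.12 and 6.24, a log2 change of -0.93 (SE 0.16, edgeR adjusted p = 0.00937). Both had groups apart and kept their calls with any library left out. Cathepsin D genes had 2 of 6 lower (2, 1, 0, 0, 0 and 1) and all 6 below 0.

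Detoxification and transport families had members called lower. Genes whose description begins with cytochrome P450, most of them oxidases of drugs, steroids and bile acids, had 8 of 49 lower and 0 higher (14, 2, 2, 1, 1 and 1 lower with 1 library left out). Genes of the CYP type described by other words are not in this count, such as CYP24A1, called higher, and CYP27B1, called lower, both given below. The most clearly separated was cyp2k5 (100137012), with 284, 276 and 312 FPKM in the controls and 129, 114 and 137 in hypoxia, a log2 change of -1.23 (SE 0.13, edgeR adjusted p = 0.0033). Genes with "multidrug" in the description had 4 of 10 lower (3, 1, 1, 1, 1 and 1), of which the efflux transporter slc47a1 (110534810) had 12.2, 13.5 and 12.4 FPKM against 7.39, 7.52 and 7.32, a log2 change of -0.80 (SE 0.13, edgeR adjusted p = 0.00882). Its libraries were nearly equal within each group. Aquaporins, the water and glycerol channels, had 3 of 9 lower (3, 0, 2, 0, 1 and 0). The gene described as flavin-containing monooxygenase FMO1 and named FMO5 (100136696) rose by 1.07 (SE 0.14, edgeR adjusted p = 0.0064), from 33.9, 27 and 28 FPKM to 57.0, 57.5 and 76.2.

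The word family hydroxylase split, with 7 of 42 members lower and 5 higher (8, 6, 3, 3, 4 and 4 lower, and 7, 1, 1, 2, 3 and 1 higher, with 1 library left out). These are 16.7% lower and 11.9% higher, where 3.39% and 3.83% of all genes were. A pair of genes for FAXDC2, a sterol-related hydroxylase, fell: gene 110515922 had 83.2, 138 and 135 FPKM in the controls and 45.2, 42.0 and 60.3 in hypoxia, and gene 110510939 had 23, 34.2 and 45.6 against 10.5, 11.7 and 14.3. Their log2 changes were -1.31 and -1.53 (SE 0.22 and 0.24, edgeR adjusted p = 0.00903 and 0.00839). The enzymes that make and remove the active form of vitamin D went in opposite directions, each with 1 library that stood out. CYP24A1 (100136661), which inactivates it, had 2.62, 1.03 and 0.951 FPKM in the controls and 3.6, 4.26 and 13.2 in hypoxia, a log2 rise of 2.19 (SE 0.49, edgeR adjusted p = 0.025). Its adjusted p in edgeR was 0.0793 and 0.0836 without control replicates 2 and 3, and 0.0743, with a log2 change of 1.38, without hypoxia replicate 3. CYP27B1 (110528221), which makes it and was chosen after its values were seen, had 15.1, 1.93 and 47.8 FPKM in the controls and 1.35, 2.1 and 2.8 in hypoxia, so that its groups overlapped. Its log2 change of -3.42 (SE 0.82, edgeR adjusted p = 0.033) was -1.995 at an adjusted p of 0.1 without control replicate 3, and the adjusted p was 0.135, 0.101 and 0.103 without hypoxia replicates 1, 2 and 3.

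Genes with "collagen" in the description, mostly collagen chains of several types, had 11 of 52 lower and 0 higher, with 8, 1, 5, 0, 0 and 7 lower when 1 library was left out. Collagens are proteins of the matrix between cells, and those called lower included chains of types I, V, VI and XIII. The type I gene col1a2 (100135811) had 49.5, 45.6 and 36.9 FPKM in the controls and 20.4, 22.7 and 34 in hypoxia, a log2 change of -0.80 (SE 0.18, edgeR adjusted p = 0.0253). Leaving out control replicate 2, hypoxia replicate 1 or hypoxia replicate 2 lost the call, and hypoxia replicate 3 came close to the lowest control. Summed markers of endothelium and stellate cells, the collagen-making cells of liver, were 286, 253 and 220 FPKM in the controls and 140, 152 and 213 in hypoxia, mostly type I collagen itself, with 4 of 11 tested lower and 6 of 24 rows at 0. The endothelial cadherin CDH5 (110506352) was called lower, at 3.82, 3.55 and 3.83 FPKM against 2.41, 2.84 and 2.58 (log2 change -0.53, SE 0.14, edgeR adjusted p = 0.0441), and was chosen after its values were seen. The part of a change in these cells was not tested.

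Many large families had few or no members called. None of 78 genes of the large cytosolic ribosomal subunit and 1 of 53 of the small subunit was called at an adjusted p under 0.05 in edgeR, where 7.22% of all genes were. At an unadjusted p under 0.05 edgeR had 8 and 5, DESeq2 called 2 of each, and limma called 0 and 1. The small subunit had 0, 0, 1, 0, 0 and 0 higher with 1 library left out. Their medians were nevertheless a little above 0, at 0.155 and 0.157 on the log2 scale, with 67 of 78 and 47 of 53 above 0. For example rpl19 (110486219) had 553, 552 and 562 FPKM in the controls and 730, 684 and 783 in hypoxia, a log2 difference of 0.37 (SE 0.12, edgeR adjusted p = 0.0846). The groups were apart, but the difference missed the threshold. Genes with "nadh" in the description, mostly subunits of respiratory complex I, had 1 of 74 called higher (0, 0, 1, 0, 1 and 0 with 1 library left out) and a median of 0.193, with 11 at an unadjusted p under 0.05. These families have short transcripts, with median lengths of 639, 738 and 868 bases, and all genes of the shortest 10% had a median change of 0.171. With the length trend removed, 0 genes of the small subunit were called higher, and 0 of the nadh genes higher and 1 lower. The part of length was not tested otherwise. Of the genes with "mediator" in the description, mostly subunits of the complex that links transcription factors to RNA polymerase II, 0 of 56 were called in edgeR, with 7 at an unadjusted p under 0.05 and 1 called by DESeq2 and by limma. Genes with "homeobox" in the description had 1 of 56 lower (3, 1, 0, 0, 0 and 0 with 1 library left out), pbxip1a, described as a homeobox-interacting protein. Zinc finger genes, the largest family read here, had 1 of 525 higher and 9 lower (8, 0, 0, 0, 0 and 1 higher and 17, 1, 1, 0, 0 and 1 lower with 1 library left out).

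Pairs of genes with the same description, which include duplicates, were compared with each other. There were 2842 pairs of exactly 2 tested genes. In 2529 neither copy was called, in 265 only 1 was, in 28 both were called higher, in 17 both lower, and in 3 the copies were called in opposite directions. Where only 1 copy was called, the other had a change of the same sign in 210 of 265 pairs. Across the pairs the log2 changes of the copies correlated at a Pearson r of 0.461, a description over 2842 pairs that share the same 6 libraries and may share reads, and their median absolute difference was 0.248. Leaving out 1 library gave 87, 15, 14, 10, 13 and 11 pairs called the same way.

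Besides the pairs named above, both copies fell for gatm, which makes the precursor of creatine, and for TEX2, an endoplasmic reticulum protein of lipid transport. The gatm copies had 5.71, 4.62 and 3.38 FPKM in the controls and 1.34, 0.587 and 0.669 in hypoxia at gene 110509504, and 1.89, 2.32 and 1.14 against 0.546, 0.332 and 0.423 at gene 110509505, log2 changes of -2.42 and -2.05. Of the opposite pairs, choline kinase alpha (the first enzyme of phosphatidylcholine synthesis from choline) had its abundant copy CHKA (110520584) at 7.77, 6.81 and 7.47 FPKM in the controls and 5.72, 4.91 and 5.38 in hypoxia, a log2 change of -0.49 (edgeR adjusted p = 0.04). Its minor copy chka (110495325) had 0.877, 0.885 and 1.03 FPKM against 2.86, 2.1 and 1.7, a log2 rise of 1.14 (edgeR adjusted p = 0.0134). The groups were apart in both copies, but the fall of the abundant copy lost its call without any library except control replicate 1 (adjusted p of 0.083 to 0.144), and the rise of the minor copy had an adjusted p of 0.0606 without hypoxia replicate 1. The transmembrane gene tmem82 fell at 110529017, from 2.48, 3.85 and 3.15 FPKM to 1.29, 1.34 and 1.43 (log2 change -1.25, SE 0.20, edgeR adjusted p = 0.00882). Its other copy, 110492245, rose from 1.75, 1.52 and 1.59 FPKM to 2.73, 2.62 and 2.32 (log2 change 0.64, SE 0.17, edgeR adjusted p = 0.0433), a call lost without any library except control replicate 1. The third such pair, both named F2R (110509677 and 110523459) and described as a receptor for thrombin-like proteases, had changes of -0.53 and 0.77 whose calls were lost in 5 and 4 of the 6 fits with a library left out.

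**Figure D4:**
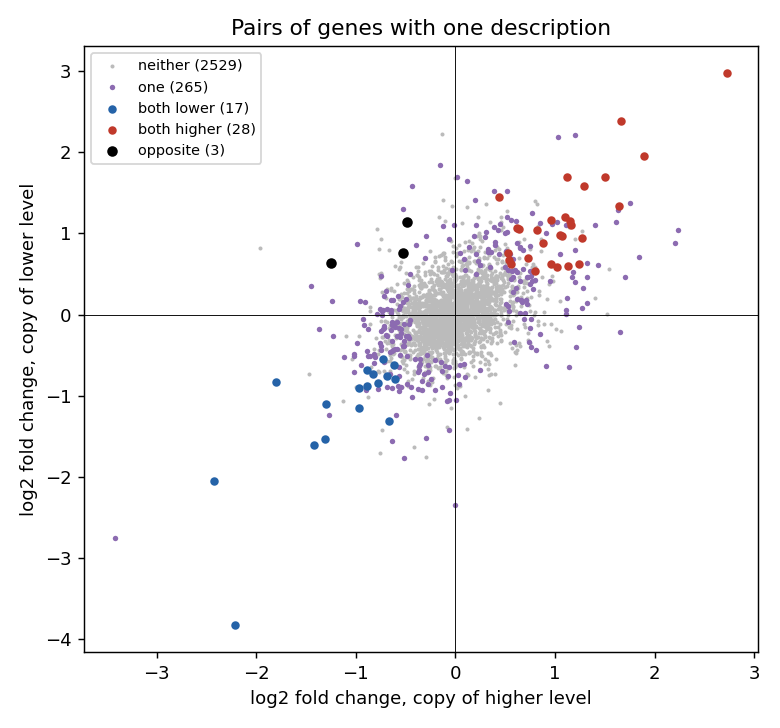
Log2 fold change of the copy of lower level (y axis) against that of the copy of higher level (x axis) for 2842 pairs of genes with the same description. Pairs with both copies called higher (28, red) or lower (17, blue) have both changes on the same side of 0, and 3 pairs called in opposite directions (black) lie where the more abundant copy fell and the other rose.

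Neighbours on the chromosome were read from the order of genes in the RefSeq assembly USDA_OmykA_1.1. Of 19125 pairs of neighbouring tested genes, 91 were called the same way and 47 opposite ways, where 7.22% of all tested genes were called. How many such pairs would arise without any link between neighbours was not computed. There were 9 runs of at least 3 neighbours called the same way, the longest with 9 globin genes that fell. A run that rose held H3-I, h2ax and a histone H2B gene with the sulfotransferase gene sult6b1 among them. Another held aspm (110524785), a spindle protein, CRB1 (110523038) and the uncharacterized LOC118964687, which rose by 0.89, 2.23 and 2.47 on the log2 scale. The member CRB1, a crumbs protein known for cell polarity in the retina of mammals, had 0.871, 0.36 and 0.57 FPKM in the controls and 2.67, 2.74 and 3.45 in hypoxia (SE 0.21, edgeR adjusted p = 0.00247). Next to it LOC118964687 had 0.202, 0.178 and 0.154 FPKM against 1.35, 0.829 and 0.839 (SE 0.33, edgeR adjusted p = 0.00643). Both calls held with any library left out. Overlapping or run-on transcripts at neighbouring genes could share reads, since strand is not stated.

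Single genes outside the families described also fell clearly. Alpha-tocopherol transfer protein, TTPA (110508824), which loads vitamin E into plasma fat particles, had 8.18, 9.58 and 11.2 FPKM in the controls and 2.98, 3.85 and 3.55 in hypoxia, a log2 change of -1.47 (SE 0.17, edgeR adjusted p = 0.00492). NFE2L1 (110486161), a membrane-bound transcription factor known in mammals to switch on proteasome genes, had 8.28, 7.03 and 7.03 FPKM against 3.54, 3.36 and 3.25. Its log2 change was -1.16 (SE 0.13, edgeR adjusted p = 0.00357). Betaine-homocysteine methyltransferase, bhmt (110523446), which makes methionine from homocysteine, had 99.7, 173 and 196 FPKM against 44.3, 45.0 and 54.4, a log2 change of -1.74 (SE 0.24, edgeR adjusted p = 0.00697). The hypoxia libraries of all 3 genes lay below every control, with control replicate 1 the nearest control for TTPA and bhmt. Abat (110512779), which breaks down the amino acid GABA, fell by 0.98 on the log2 scale (SE 0.13, edgeR adjusted p = 0.00679), from 30.3, 32.8 and 30.4 FPKM to 16, 17 and 15. A larger fall in level was that of lect2 (100135969), a secreted liver protein, with 2540, 1140 and 786 FPKM in the controls and 459, 491 and 743 in hypoxia. Its log2 change of -1.40 (SE 0.34, edgeR adjusted p = 0.0335) had control replicate 1 as the highest library, and it lost its call when control replicate 2 (adjusted p = 0.0509) or any hypoxia replicate (0.137, 0.108 and 0.0666) was left out. The gene mid1ip1a (110508116), described as thyroid hormone responsive, kept its call with any library left out. It had 1190, 2020 and 1160 FPKM against 327, 317 and 218, a log2 change of -2.362 (SE 0.246, edgeR adjusted p = 0.00323).

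**Figure D5:**
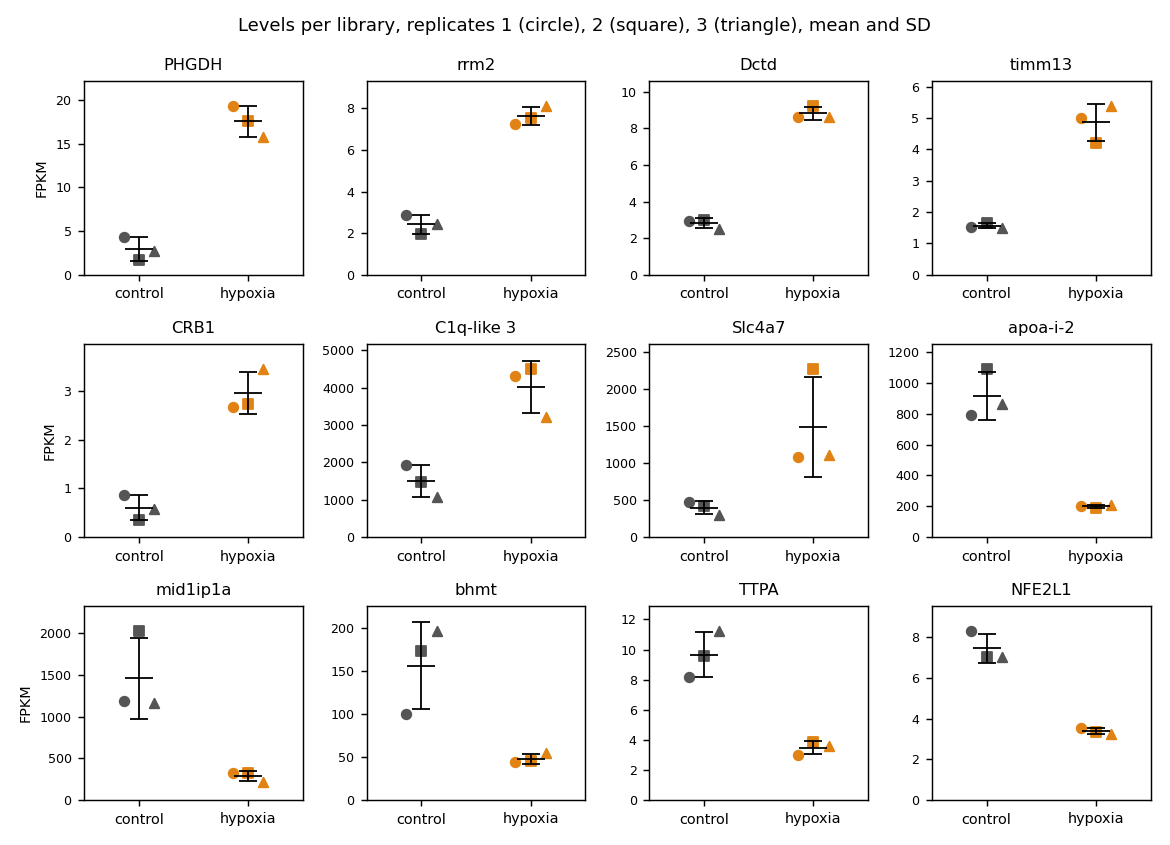
FPKM (y axis, from 0) of 12 genes in each library, with replicates 1, 2 and 3 as circle, square and triangle, controls in grey and hypoxia in orange, and the mean and SD of 3 libraries in black. In each of these genes the hypoxia libraries lie wholly above or wholly below the controls.

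Some of the largest log2 rises held with any library left out. The largest, cdca7a (110520115), had 0.43, 0.156 and 0.042 FPKM in the controls and 1.83, 1.49 and 2.19 in hypoxia. Its log2 rise was 3.155 (SE 0.486, edgeR adjusted p = 0.00837). PHGDH (110520091) had 4.36, 1.68 and 2.71 FPKM against 19.3, 17.6 and 15.8, a log2 rise of 2.586 (SE 0.256, edgeR adjusted p = 0.00247). Other large rises rested on a single library. Thyroxine 5-deiodinase, LOC110522491, which inactivates thyroid hormone, had 0.623, 0.288 and 0.382 FPKM in the controls and 0.908, 1.01 and 4.63 in hypoxia, a log2 rise of 2.31 (SE 0.62, edgeR adjusted p = 0.0462). Without hypoxia replicate 3 the rise was 1.16 with an adjusted p of 0.161, and leaving out control replicate 2, control replicate 3 or hypoxia replicate 2 gave adjusted p-values of 0.132, 0.125 and 0.0529. Hypoxia replicate 3 was also the highest library for ddit4, CYP24A1 and igfbp1a. The gene igfbp1a (101268901) had 8.02, 6.5 and 7.65 FPKM in the controls and 11.8, 14.8 and 38.3 in hypoxia, a log2 rise of 1.52 (SE 0.36, edgeR adjusted p = 0.0315), a call lost without control replicates 2 and 3 and without hypoxia replicate 3.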

How the data were processed

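Total RNA of flash-frozen liver was sequenced in 3 control and 3 hypoxia libraries. Per the submitters' processing notes, the tools were TopHat2 2.1.1 and Bowtie2 2.2.8; genome build and use of strand: not given in the sources used here. Per the file headers, the deposited table gives for each gene the authors' read count and FPKM per library, with the authors' log2 ratio, p-value and q-value of the comparison. Of 1400 genes past the threshold of the authors' deposited table, 1178 were also called here. Rows with a mean FPKM of at least 0.5 were tested on the deposited counts with edgeR 4.0.16 (quasi-likelihood, TMM, group as the only term; R 4.3.3), with Benjamini-Hochberg adjustment over 19365 genes and a threshold of 0.05. The SE came from the unshrunken log2 change and the root of its F statistic. DESeq2 1.42.0 and limma 3.58.1 were alternatives; Python 3.11.15, pandas 2.3.3 and matplotlib 3.10.9 made the summaries.

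Families are genes sharing the first 2 words, or a word, of the cleaned product description, with at least 6 tested genes; a ranking of families with at least 20 was added after values were seen. Transcript length is the count scaled by FPKM and library total. Genes named are the 25 largest rises and falls among described, separated calls of at least 1 FPKM, the 15 smallest adjusted p and 15 largest changes of FPKM per direction, up to 4 per family, the 10 highest levels, and the best and all opposite pairs of copies; exceptions are stated. Members and lists were chosen with earlier results of these data known. On simulated counts with 19365 genes and 50 changed per size, 4% of 1.5-fold, 64% of 2-fold, 90% of 4-fold and 100% of 8-fold changes were recovered. Beside these 2, 32, 45 and 50 right calls there were 17 false calls. No simulated library was set apart as control replicate 1 was in the data. Fewer genes were changed in the simulation than were called in the data, which makes its adjusted threshold stricter. Replicates differed by more than counting noise (chi-square per degree of freedom 10.5 to 24.9). Promoters and proteins were not analysed here, and the small RNA data were not used here.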

Additional observations from a re-analysis of the deposited data

How the results depend on the processing

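No alternative called a gene in the opposite direction, and none of the 313 named genes changed sign. Calls numbered 1398 (741 higher, 657 lower); with RLE size factors they were 1404, with DESeq2 1791, without the filter on low values 1849, with at least 1 FPKM 1342, and with the length trend removed, an alternative chosen after seeing the data, 1289. With limma on log2(FPKM + 0.5) calls fell to 826 (509 higher, 317 lower), 209 of them at 2-fold, with 27 pairs of copies and 52 families; with limma on log2(FPKM + 0.1) they were 771 (466 higher, 305 lower), with 24 pairs and 46 families; the cause was not tested. Leaving out 1 library, which lowers the number of samples, gave 361 to 2186 calls, 229 to 1130 higher, 127 to 1056 lower, 247 to 788 at 2-fold, 10 to 87 pairs of copies and 21 to 160 families; the highest value was in each case without control replicate 1. At an unadjusted p under 0.05 these fits held 3484 to 5143 genes. With the replicate number as a block 1046 genes were called (555 higher, 491 lower). Same-numbered libraries did not deviate together (correlations of -0.0543, 0.0369 and -0.0402). With 3 libraries a group this cannot show whether the numbers pair the samples, and the labels do not say. Of the 228 named genes called, 92 were called in all 6 fits with a library left out. With 3 libraries a group, 4% of 1.5-fold changes were recovered on simulated counts. That rate does not carry over to the data, where more genes were called and the adjusted threshold was therefore less strict. The smallest called changes had a size of 0.432 (higher) and 0.446 (lower) on the log2 scale. How many small changes were missed in the data is not known.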

Other observations

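Among genes without a product name, 20 of 545 tested were called higher and 8 lower, and among assembled loci outside the reference annotation 9 and 8 of 206. Over all tested genes 3.83% were called higher and 3.39% lower. An assembled locus described as gonadal somatic cell derived factor (MSTRG.12908) had 2.69, 1.92 and 0.84 FPKM in the controls and 7.25, 7.93 and 6.97 in hypoxia, a log2 rise of 2.03 (SE 0.30, edgeR adjusted p = 0.00793). The uncharacterized LOC110524385 had 2.27, 2.21 and 2.3 FPKM in the controls and 0.939, 0.817 and 0.797 in hypoxia, a log2 change of -1.44 (SE 0.19, edgeR adjusted p = 0.0064). Both calls held with any library left out, and both loci had groups that did not overlap.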
